A study of Mus musculus with 11 samples.

Results

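The miR-23, miR-27 and miR-24 families were followed through 5 mature mouse miRNAs, mmu-miR-23a-3p, mmu-miR-23b-3p, mmu-miR-27a-3p, mmu-miR-27b-3p and mmu-miR-24-3p (given below without the species prefix), chosen by name from the 1247 miRNAs of an Agilent mouse array. All 5 were detected on all 11 arrays, as were 126 miRNAs in all. The arrays were hybridised with Cy3-labelled RNA of GFP-positive macrophages sorted from hearts of Cx3cr1GFP/+ knock-in mice aged 2 to 3 months. GFP in these mice comes from the locus of the fractalkine receptor CX3CR1, of which every group, the uninjured one included, carries a single intact copy. Macrophages of the Ly6clow/CX3CR1high profile came from hearts without surgery (day 0, 2 arrays). The injured groups had received a cryoinjury, a freezing lesion used as a model of myocardial infarction. They held Ly6chigh/CX3CR1low macrophages at day 3 (3 arrays) and Ly6clow/CX3CR1high macrophages at day 7 (3 arrays) and day 30 (3 arrays). The day 3 group alone is Ly6chigh, so that stage and profile cannot be told apart there.

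These miRNAs are cut from 2 paralogous clusters. Each cluster encodes a miR-23, a miR-27 and a miR-24 hairpin on a shared primary transcript, and the a and b clusters differ in genomic site and promoter. A mature miRNA guides Argonaute to messenger RNAs that pair with its seed (bases 2 to 8), which lowers their translation and stability. In mouse haematopoietic cells the a cluster is known as a target of the myeloid transcription factor PU.1 and favours myeloid over lymphoid fate. miR-27 is known for repressing the lipid-metabolism regulator Pparg, and miR-24 for restraining apoptosis and proliferation genes.

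The mature sequences, from RefSeq on build GRCm38.p6, are shown because they fix which members the array can tell apart; capitals mark the seed.
miR-23a-3p: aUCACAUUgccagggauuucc
miR-27a-3p: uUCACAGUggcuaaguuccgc
miR-27b-3p: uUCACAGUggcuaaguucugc
miR-24-3p: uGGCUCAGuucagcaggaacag
A mature sequence was matched for 4 of the 5 members, and miR-23b-3p is given by name. miR-27a-3p and miR-27b-3p have the same seed and differ at 1 of 21 bases, C19U, counted from the 5′ end with the base of miR-27a-3p first. miR-24-3p is a single sequence made from 2 hairpins, Mir24-2 of the a cluster and Mir24-1 of the b cluster, so its signal cannot be assigned to either.

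The hairpins of Mir23a and Mir23b are shown for the stretch they share, in capitals.
Mir23a: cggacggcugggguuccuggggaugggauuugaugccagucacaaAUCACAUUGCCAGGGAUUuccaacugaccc
Mir23b: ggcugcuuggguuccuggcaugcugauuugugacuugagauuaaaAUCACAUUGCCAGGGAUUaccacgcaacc
The first 18 bases of miR-23a-3p occur unbroken in the Mir23b hairpin, and the aligned 21 bases differ at 1 position (U19A, with the base of miR-23a-3p first). How far the probe of one paralog also binds the other was not tested.

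On GRCm38.p6 the a cluster (Mir23a, Mir27a, Mir24-2) lies on the plus strand at chr8:84208518-84208921, a span of 404 bases. The b cluster (Mir23b, Mir27b, Mir24-1) lies on the plus strand at chr13:63300484-63301275, a span of 792 bases, and overlaps the protein-coding gene Aopep. The a cluster overlaps no annotated gene other than its own hairpins and Mir3074-2, which lies on the other strand. The deposited files name no genome build.

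Array brightness differed between groups and bears on every level given below. Over the 126 miRNAs found on every array, the 75th percentile lay between 55.7 and 163 scanner units on the day 0 arrays and between 805 and 1607 on those of day 3. It lay between 114 and 323 for day 7 and between 1453 and 2304 for day 30. Each signal was divided by its array's percentile and is given as log2, so that 0 is the percentile itself. Arrays came from 2 slides, each of which held every group. The squared difference between replicates 2 and 3 of day 30 was 0.209 times that expected from scanner error, less than the measuring noise, against 2.74 to 43.1 times for the other 9 pairs of replicates. They were counted as 1 sample, which left 10 samples. On this scale the median of the changes of these 126 was not 0, and it is given beside each comparison as the shift. Precision is limited by how few arrays there are.

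The myeloid miR-223-3p and the pan-haematopoietic miR-142a-3p, neither of which marks macrophages over other leukocytes, were detected on all arrays. Of 5 cardiomyocyte miRNAs 2 were never detected (miR-208a-3p and miR-499-5p), and miR-133a-3p and miR-133b-3p were detected on all arrays. miR-133b-3p was between 0.0641 and 0.106 times the percentile at day 0 and between 0.0445 and 0.075 at day 7. It was between 0.0101 and 0.0162 at day 3 and between 0.0202 and 0.0222 at day 30, and miR-133a-3p was likewise higher on days 0 and 7. miR-1a-3p, detected on 6 arrays, did not share this pattern (0.0432, 0.022 and 0.0227 at day 30). Days 0 and 7 were also the dim arrays, and before division by the percentile both miR-133 signals were highest at day 30. The part of brightness in the miR-133 pattern was not tested. The cardiomyocyte list summed to 0.0226 to 0.239 times the percentile, against 2.39 to 17.9 for the 3 myeloid and leukocyte miRNAs. This leukocyte sum was lowest on the day 7 arrays (between 2.39 and 3.59) and highest on those of day 3 (between 14.2 and 17.9), with no overlap with other days. It was between 3.92 and 7.17 for day 0 and between 7.94 and 9.33 for day 30. Of the 3 markers, miR-223-3p alone was lowest at day 7 and highest at day 3 without overlap. miR-142a-3p was 2.31, 1.51 and 1.53 at day 30 and 1.015, 0.761 and 1.58 at day 3. Its day 7 arrays overlapped those of day 0. miR-142a-5p, detected on 7 arrays, was highest at day 30 (0.364, 0.252 and 0.268), with 0.082, 0.07415 and 0.144 at day 3. The endothelial miR-126a-3p was detected on all arrays at 0.0647 to 0.417 times the percentile. The lymphocyte miR-150-5p was between 0.00455 and 0.00647 on the day 30 arrays and between 0.0145 and 0.0659 on those of days 3 and 7. On the day 0 arrays it was undetected, with background at 0.00928 and 0.0255, so day 0 cannot be ranked against day 30. The 2 erythroid miRNAs, of which miR-144-3p was never detected, summed to between 0.0825 and 0.106 on the day 30 arrays and to between 0.0111 and 0.0576 on the others. The part of these cell types in the changes of the members was not tested.

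**Figure D1:**
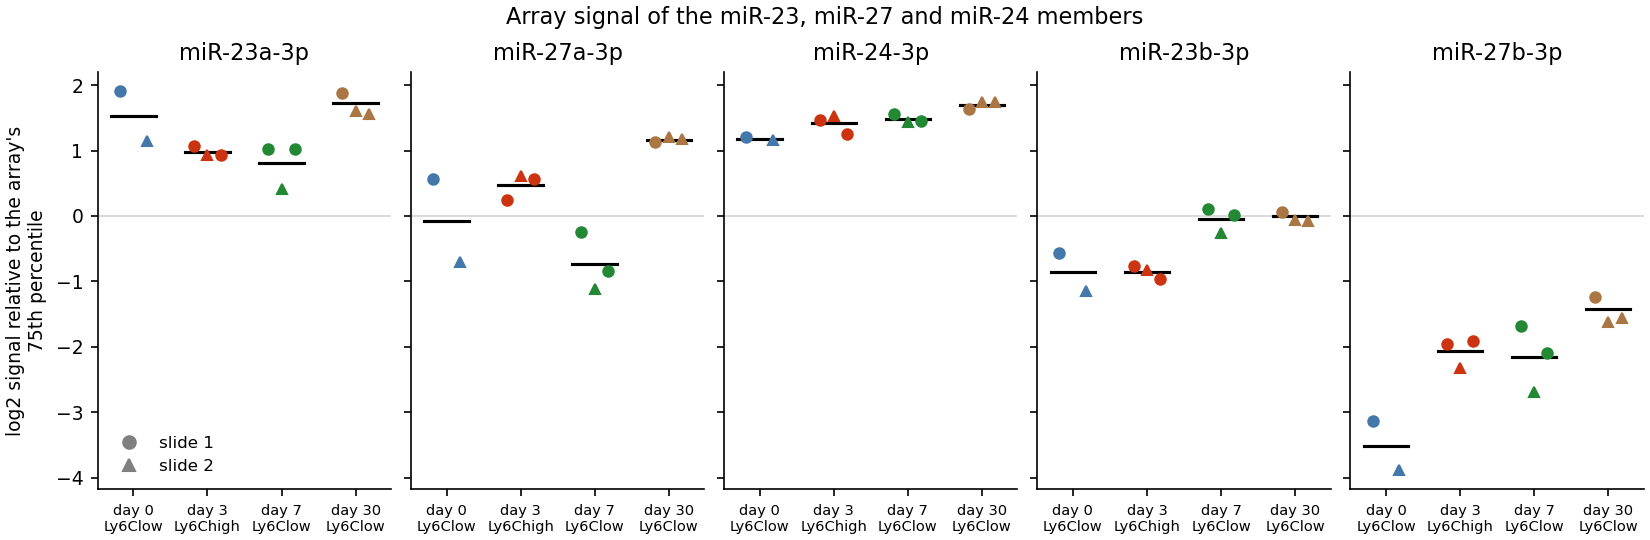
Log2 signal of each member relative to the array's 75th percentile, one point per array, with circles for slide 1 and triangles for slide 2, and a bar at the mean of each group (day 30 replicates 2 and 3 counted as 1 sample). miR-24-3p stays between 1.16 and 1.75 on all arrays, whereas miR-27b-3p lies between -3.88 and -1.24.

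miR-23a-3p, the a-cluster member of its family, had log2 levels of 1.91 and 1.14 at day 0, 1.08, 0.93 and 0.93 at day 3, 1.02, 0.41 and 1.02 at day 7, and 1.87, 1.61 and 1.55 at day 30. Day 30 lay above day 3 and day 7 on every array and overlapped day 0. miR-27a-3p, its neighbour in the cluster, had 0.57 and -0.71 at day 0, 0.24, 0.61 and 0.56 at day 3, -0.25, -1.12 and -0.83 at day 7, and 1.13, 1.21 and 1.18 at day 30. It was highest on the day 30 arrays, without overlap with any other group, and day 7 lay below day 3 on every array. The uninjured group spread widest, with an SD of 0.90.

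In the b cluster, miR-23b-3p had -0.56 and -1.15 at day 0, -0.76, -0.83 and -0.96 at day 3, 0.11, -0.25 and 0.01 at day 7, and 0.06, -0.06 and -0.08 at day 30. The arrays of days 7 and 30 overlapped each other and lay above all arrays of days 0 and 3. miR-27b-3p, the dimmest member, had -3.13 and -3.88 at day 0, -1.95, -2.32 and -1.91 at day 3, -1.68, -2.68 and -2.10 at day 7, and -1.24, -1.62 and -1.56 at day 30. Day 0 was below every other array for this miRNA, and days 3 and 7 overlapped. On the dimmest array, day 0 replicate 2, its signal was 3.78 scanner units with a scanner error of 1.06.

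miR-24-3p, which both clusters feed, varied least. Its log2 levels were 1.21 and 1.16 at day 0, 1.46, 1.53 and 1.25 at day 3, 1.55, 1.43 and 1.45 at day 7, and 1.63, 1.75 and 1.74 at day 30. Day 0 lay below and day 30 above every array of the other days. Between neighbouring days its mean changed by less than the limma standard error of the change. That error draws on the spread of all tested miRNAs, and the SD of miR-24-3p within groups was 0.04 to 0.14.

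Signals of different miRNAs depend on their probes, so an order of signals is an order on this array and not of molecules. miR-24-3p or miR-23a-3p gave the highest signal of the 5 on every array and miR-27b-3p the lowest. The full order was miR-24-3p, miR-23a-3p, miR-27a-3p, miR-23b-3p, miR-27b-3p on 6 arrays: day 0 replicate 2, all 3 of day 3, and day 30 replicates 2 and 3. miR-23a-3p led on 2 arrays, day 0 replicate 1 and day 30 replicate 1, and miR-24-3p led on the other 9. On day 0 replicate 2 and the 3 day 30 arrays the leading signals lay 0.0756 to 1.54 combined scanner errors apart, which does not order them. The gap was 2.06 to 3.73 errors at day 3 and 2.77 to 6.10 at day 7, with miR-24-3p ahead.

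Day 7 had an order of its own, with miR-23b-3p above miR-27a-3p on all 3 arrays and on no array of another day. Its signals were 348, 95.3 and 261 scanner units for miR-23b-3p against 271, 52.5 and 146 for miR-27a-3p. With a and b signals added, the miR-27 family was below miR-23 and miR-24 on all 11 arrays. The summed miR-23 signal was above that of miR-24 on every array except day 3 replicates 1 and 2 and day 7 replicate 2. The scanner error of the sums was not computed. On some arrays the sums of miR-23 and miR-24 differed by less than the error of miR-24-3p alone, which does not order them. These were day 3 replicate 1 (2594 and 2654, error 189), day 3 replicate 3 (3890 and 3823, error 273) and day 7 replicate 1 (1001 and 947, error 67.7). Together the 5 miRNAs made up 5.20 and 1.68% of the total miRNA signal at day 0, 3.20, 3.22 and 3.64% at day 3, 3.24, 2.79 and 3.87% at day 7, and 6.60, 6.19 and 6.49% at day 30. The 3 day 30 shares were the highest of all.

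The a and b paralogs of a family did not move together across the 4 groups, and the difference between them was smallest at day 7 in both families. Days 3 and 30 were alike, with mean log2 differences of 1.83 and 1.73 for miR-23 and 2.53 and 2.58 for miR-27. A difference of 2 log2 signals on one array does not depend on how the array is scaled. For miR-23, the a signal exceeded the b signal 5.52- and 4.91-fold at day 0, 3.58-, 3.40- and 3.70-fold at day 3, 1.88-, 1.59- and 2.02-fold at day 7, and 3.51-, 3.18- and 3.10-fold at day 30. No day 7 array reached the values of another day, and no other array reached those of day 0, while days 3 and 30 overlapped.

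The means of the log2 difference were 2.38 ± 0.12 at day 0 (SD, n = 2), 1.83 ± 0.06 at day 3 (n = 3), 0.86 ± 0.18 at day 7 (n = 3) and 1.73 ± 0.11 at day 30 (n = 2). The 4 groups differed in an exact permutation test of the F ratio over all 25200 allocations of the samples (F = 62.9, exact p = 0.000476, adjusted p = 0.0019 over 4 paralog tests). The smallest p that this test can give is 0.000159. The scanner error of a difference was 0.16 to 0.19 log2 units for this pair.

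The miR-27 pair also had its largest difference at day 0 and its smallest at day 7. miR-27a-3p exceeded miR-27b-3p 13.0- and 9.01-fold at day 0, 4.56-, 7.67- and 5.53-fold at day 3, 2.69-, 2.96- and 2.40-fold at day 7, and 5.20-, 7.07- and 6.71-fold at day 30. Day 0 was again above and day 7 below every array of the other days. The mean log2 difference was 3.44 ± 0.37 at day 0 (n = 2), 2.53 ± 0.38 at day 3 (n = 3), 1.42 ± 0.15 at day 7 (n = 3) and 2.58 ± 0.29 at day 30 (n = 2). The groups differed here too (F = 18.5, exact permutation p = 0.00222, adjusted p = 0.00444). For this pair the scanner error of a difference was 0.17 to 0.43 log2 units, largest on day 0 replicate 2. The difference on that array, 3.17, lay within this error of the 2.94 of day 3 replicate 2.

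**Figure D2:**
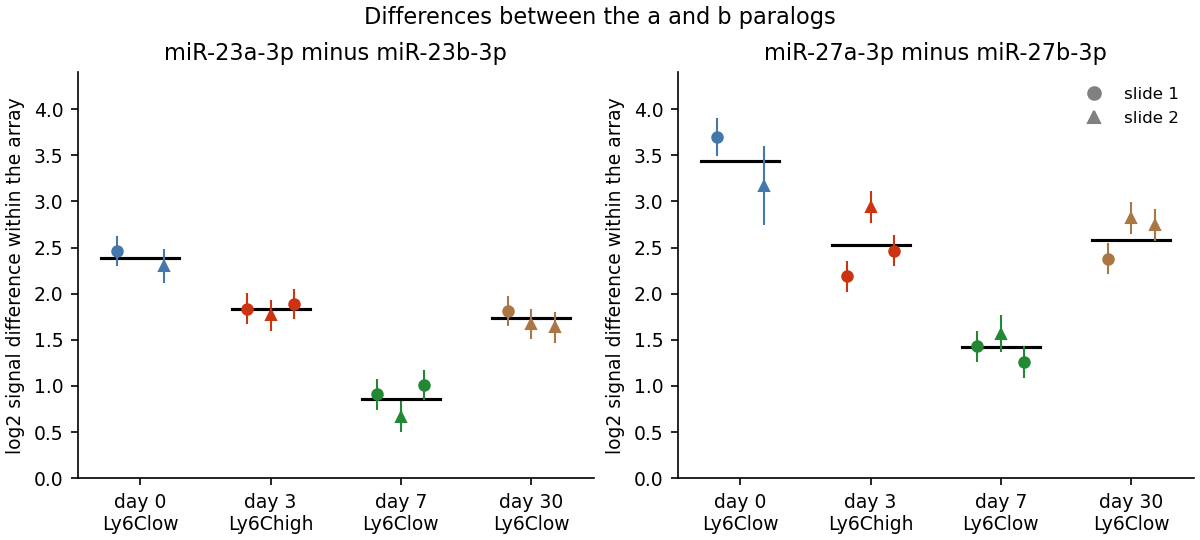
Log2 signal of the a paralog minus that of the b paralog within each array, for miR-23 (left) and miR-27 (right), with the scanner error of the difference as bars, slides as symbols and group means as lines. Day 7 is lowest and day 0 highest in both panels, on both slides.

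On both slides day 0 was highest and day 7 lowest in both families, and the tests held with allocations within slides alone (exact p = 0.000926 for miR-23 and 0.00463 for miR-27). For miR-27 on slide 2, day 0 was 1 array, with a log2 difference of 3.17 and a scanner error of 0.43. The arrays of day 3 (2.94) and day 30 (2.82 and 2.75) on that slide lay within that error of it, so day 0 is not ordered above them there. Single pairs of groups cannot pass such a test, since 3 samples against 2 or 3 allow no p below 0.1 and 2 against 2 none below 0.333. Day 3 Ly6Chigh macrophages against the 7 Ly6Clow samples, which could pass, did not: the log2 difference was higher by 0.29 for miR-23 (two-sided exact permutation p = 0.467, 120 allocations) and by 0.20 for miR-27 (exact p = 0.742). The Ly6Clow mean pools day 0 and day 7, the highest and lowest groups, with day 3 between them. This test therefore says little about the Ly6C profile. The dim arrays, those of days 0 and 7, held both the largest and the smallest differences. The part of brightness in the paralog differences was not tested.

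Of 4 fibroblast and smooth muscle miRNAs, miR-145a-5p was never detected and miR-143-3p on 5 arrays. The list summed to between 0.0583 and 0.101 times the percentile on day 0 arrays, between 0.0768 and 0.0976 on day 3 arrays, between 0.156 and 0.400 on day 7 arrays and between 0.174 and 0.183 on day 30 arrays, with undetected markers at their background signal. The markers did not share a pattern. miR-199a-3p, detected on 10 arrays, was highest at day 30 (0.159, 0.156 and 0.153), with 0.134, 0.144 and 0.0886 at day 7 and 0.0256 to 0.0773 on the other arrays. miR-214-3p, detected on 9, was 0.0619, 0.234 and 0.0559 on the day 7 arrays, above all other arrays (0.00906 to 0.0252). Day 7 replicate 2, the array highest in miR-214-3p, had the smallest a to b ratio of the day 7 arrays for miR-23 and the largest for miR-27. The part of stromal RNA in the paralog differences was not tested. In sorted bulk RNA, fewer cells of a type and less RNA per cell cannot be told apart.

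Members of the same cluster also differed in their ratio between groups, and here brightness moved with them. miR-23a-3p exceeded miR-27a-3p 2.53- and 3.61-fold at day 0, 1.79-, 1.25- and 1.29-fold at day 3, 2.41-, 2.89- and 3.62-fold at day 7, and 1.67-, 1.32- and 1.29-fold at day 30. In the b cluster, miR-23b-3p exceeded miR-27b-3p 5.95- and 6.62-fold at day 0, 2.28-, 2.82- and 1.93-fold at day 3, 3.46-, 5.38- and 4.30-fold at day 7, and 2.47-, 2.93- and 2.80-fold at day 30. Days 0 and 7 lay above days 3 and 30 without overlap in both clusters. The arrays of days 0 and 7 were also the dim ones, at 55.7 to 323 scanner units against 805 to 2304, and the part of brightness in these ratios was not tested.

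**Figure D3:**
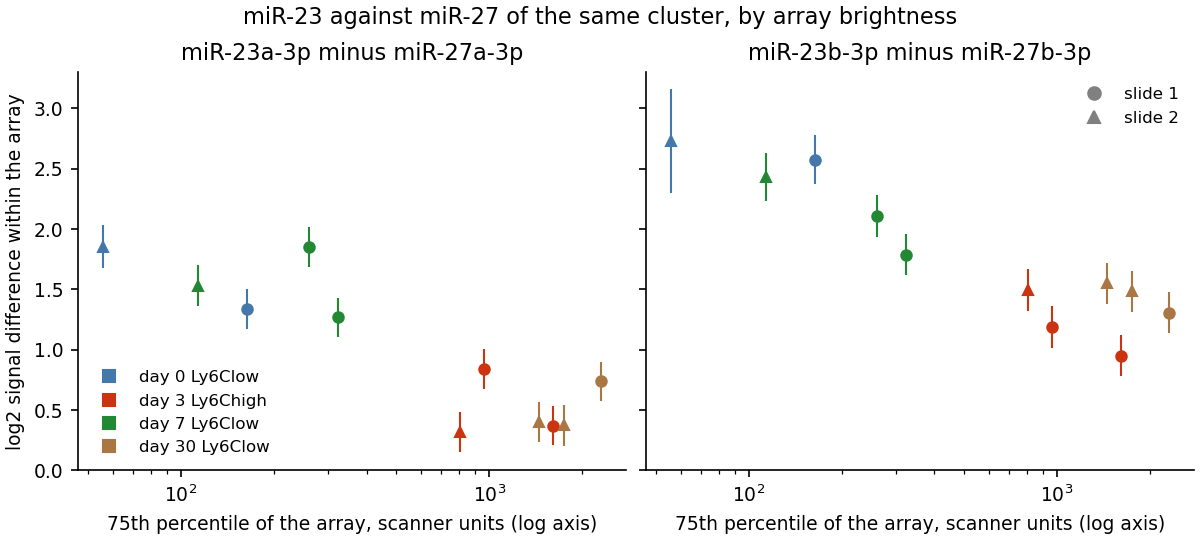
Log2 signal of miR-23 minus that of miR-27 of the same cluster on each array, against the array's 75th percentile in scanner units on a log axis; colours mark the groups, symbols the slides and bars the scanner error. All 5 dim arrays, of days 0 and 7, lie above all 6 bright arrays, of days 3 and 30, in both panels.

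For miR-24-3p against its a-cluster mates the groups ordered differently. It exceeded miR-27a-3p 1.56- and 3.64-fold at day 0, 1.61- to 2.34-fold at day 3, 3.50- to 5.85-fold at day 7 and 1.41- to 1.47-fold at day 30. Day 7 lay above days 3 and 30 on every array and overlapped day 0. Against miR-23a-3p the mean log2 difference was -0.34 ± 0.50 at day 0, 0.43 ± 0.14 at day 3, 0.66 ± 0.31 at day 7 and -0.04 ± 0.29 at day 30, without a day that stood apart from all others.

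**Figure D4:**
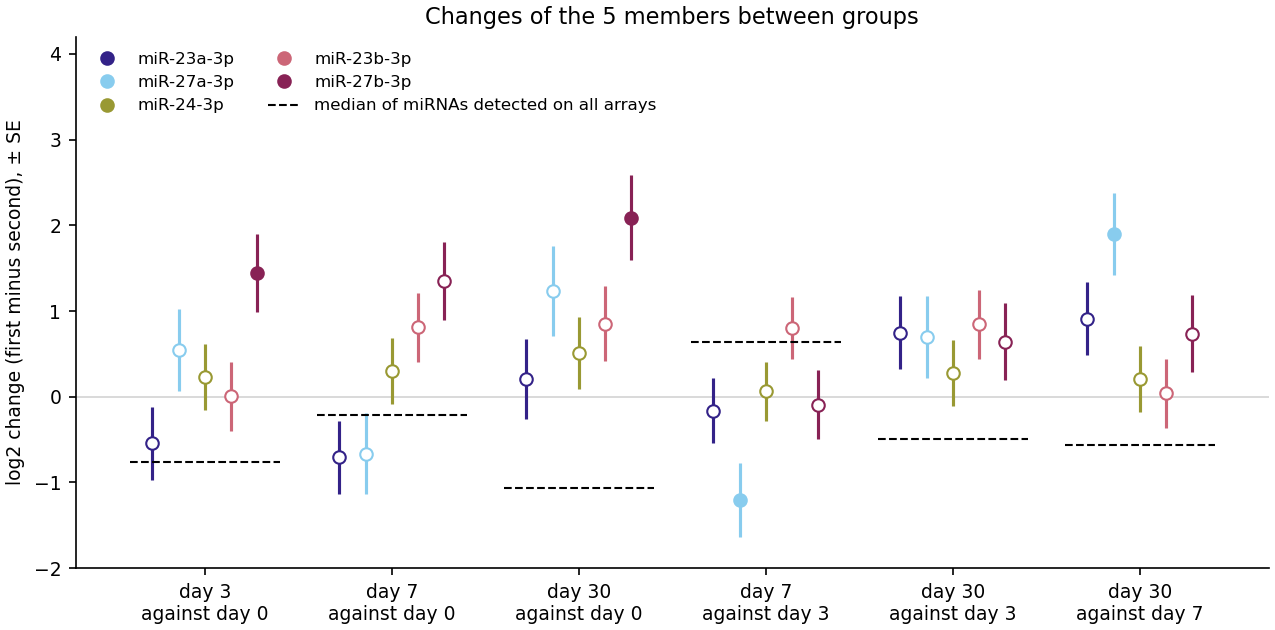
Log2 change of each member in the 6 comparisons of 2 groups (day 3 is the Ly6Chigh group), with the limma standard error as bars; filled points passed an adjusted p of 0.05 and dashed lines mark the shift, the median over the 126 miRNAs found on every array. The 4 filled points are miR-27b-3p in the comparisons of days 3 and 30 with day 0, and miR-27a-3p in those of day 7 with day 3 and of day 30 with day 7.

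Changes of level were tested with limma over the 369 miRNAs detected on at least 2 arrays, with calls at a Benjamini-Hochberg adjusted p under 0.05. In day 3 Ly6Chigh macrophages against day 0 the b-cluster miRNA miR-27b-3p rose, to -2.06 ± 0.23 (SD, n = 3) at day 3 against -3.51 ± 0.53 (n = 2) at day 0. The change was 1.45 (SE 0.45, 2.72-fold, adjusted p = 0.0177), which is 2.21 above the shift of -0.77. It was 1.20 and 1.56 within slides 1 and 2. The other 4 members did not pass: miR-23a-3p changed by -0.54 (adjusted p = 0.301), miR-23b-3p by 0.01 (0.988), miR-27a-3p by 0.54 (0.358) and miR-24-3p by 0.23 (0.64). Thus 1 of 5 members was called, as higher, where 55.3% of all tested miRNAs were called and 16.3% as higher. The groups did not overlap in 3 of 5 members and in 65.6% of all tested miRNAs, and the median change was 0.23 for the members and -0.79 for all tested. Brightness did not overlap between these 2 groups, so a fit with it as a covariate cannot cleanly separate brightness from group. With brightness as a covariate (log2 of the percentile that also scaled the signals) miR-27b-3p turned to -0.37 (SE 0.62, adjusted p = 0.788). Its call also ended without day 0 replicate 2 (1.07, adjusted p = 0.0919), day 3 replicate 1 (0.0544) or day 3 replicate 3 (0.0559), and in a fit of these 2 groups alone (0.0522).

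In day 7 against day 0 macrophages, the same sorted profile, no member passed, and 3.79% of all tested miRNAs did. At an unadjusted limma p under 0.05 there was 1, miR-27b-3p, with -2.15 ± 0.50 (n = 3) at day 7 and -3.51 ± 0.53 (n = 2) at day 0, a change of 1.35 (SE 0.45, adjusted p = 0.121). The a and b members had opposite signs. miR-23b-3p changed by 0.81 (adjusted p = 0.161) where miR-23a-3p changed by -0.71 (0.258), and miR-27a-3p changed by -0.66 (0.339). miR-24-3p changed by 0.30 (0.631). The groups did not overlap in 4 of 5 members, against 19.5% of all tested miRNAs, and the shift was -0.21. The negative signs of miR-23a-3p and miR-27a-3p became positive under 3 other settings (unscaled signals, scaling to the dmr control features of the array, and a percentile taken over every miRNA), where neither passed. With brightness as a covariate these 2 members passed as lower, by -1.14 (adjusted p = 0.0389) and -1.25 (0.0492), while miR-23b-3p and miR-27b-3p stayed positive at 0.55 and 0.75. Without day 0 replicate 1 there were 2 calls and without day 7 replicate 2 there was 1.

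In day 30 against day 0 macrophages miR-27b-3p rose again, to -1.42 ± 0.25 (n = 2) at day 30 against -3.51 ± 0.53 (n = 2) at day 0. The change of 2.09 (SE 0.50, 4.26-fold, adjusted p = 0.00591) was 3.16 above the shift of -1.06, and was 1.89 and 2.29 within the slides. miR-27a-3p came close at 1.24 (SE 0.52, adjusted p = 0.0575) and passed with the slide as a block (adjusted p = 0.0372). miR-23b-3p changed by 0.85 (adjusted p = 0.112), miR-24-3p by 0.51 (0.306) and miR-23a-3p by 0.20 (0.711). All 5 signs were positive and 1 of 5 members was called, as higher, where 56.4% of all tested miRNAs were called and 8.94% as higher. The groups did not overlap in 4 of 5 members and in 78.3% of all tested miRNAs. The median change was 0.85 for the members and -1.37 for all tested. With brightness as a covariate the call ended and the sign turned (-0.16, adjusted p = 0.915), and without day 30 replicate 1 the adjusted p was 0.0538.

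Between day 3 Ly6Chigh and day 7 Ly6Clow macrophages, where day and sorted profile changed together, the a-cluster miRNA miR-27a-3p fell. It was -0.73 ± 0.44 (n = 3) at day 7 against 0.47 ± 0.20 (n = 3) at day 3, a change of -1.20 (SE 0.43, 2.30-fold, adjusted p = 0.0406) that lay 1.84 below the shift of 0.63. Within the slides the change was -0.94 and -1.73. miR-23b-3p changed by 0.80 (SE 0.36, adjusted p = 0.0815), and passed with the slide as a block (adjusted p = 0.0492). miR-23a-3p changed by -0.16 (0.712), miR-27b-3p by -0.09 (0.84) and miR-24-3p by 0.07 (0.864). So 1 of 5 members was called, as lower, where 37.1% of all tested miRNAs were called and 16% as lower. The groups did not overlap in 2 of 5 members and in 64.2% of all tested miRNAs. The call of miR-27a-3p ended with brightness as a covariate (-0.0033, adjusted p = 0.998), with the percentile over all miRNAs (0.0624), with the highest floor (0.0681), and without any of the day 3 replicates, day 7 replicate 2, day 7 replicate 3 or day 30 replicate 1 (0.0706 to 0.136).

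In day 30 against day 7 macrophages miR-27a-3p rose, to 1.16 ± 0.04 (n = 2) at day 30 against -0.73 ± 0.44 (n = 3) at day 7. This change of 1.90 (SE 0.48, 3.73-fold, adjusted p = 0.00568) was 2.47 above the shift of -0.57, and was 1.68 and 2.31 within the slides. It passed without any single replicate (adjusted p of 0.000843 to 0.0487). Its cluster mate miR-23a-3p changed by 0.91 (SE 0.43, adjusted p = 0.101) and passed with the slide as a block (adjusted p = 0.037). The b-cluster members miR-23b-3p and miR-27b-3p changed by 0.04 (0.94) and 0.74 (0.194), and miR-24-3p by 0.21 (0.677). All 5 signs were positive, and 1 of 5 was called, as higher, where 47.7% of all tested miRNAs were called and 13.6% as higher. The groups did not overlap in 4 of 5 members and in 71.3% of all tested miRNAs. The change of miR-27a-3p fell to 0.27 (adjusted p = 0.817) with brightness as a covariate.

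In day 30 against day 3 Ly6Chigh macrophages all 5 signs were positive, from 0.27 for miR-24-3p to 0.85 for miR-23b-3p, and the groups did not overlap in any of the 5. This absence of overlap held for 74.5% of all tested miRNAs, and 30.9% of them passed the test. No member did, by the limma adjusted p (0.13 to 0.617) or at an unadjusted p under 0.05. The shift was -0.49. In a fit of these 2 groups alone 3 members passed.

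The other products of the same hairpins were dimmer and mostly undetected. Of 9 on the array (the 5p arms of miR-23a, miR-23b, miR-27a, miR-27b, miR-24-1 and miR-24-2, and 3 products of the antisense miR-3074 hairpins) 6 were detected on no array. miR-23a-5p, the passenger arm of Mir23a, was detected on all arrays of days 3 and 30 and on none of days 0 and 7. It averaged -8.09 ± 0.09 (SD, n = 2) at day 30, near the floor of -8.53, and -6.56 ± 0.17 (n = 3) at day 3. From day 3 to day 30 it fell by 1.53 on the log2 scale (limma adjusted p = 0.0476), 1.04 below the shift of -0.49. In that comparison 30.9% of all tested miRNAs were called. The day 7 level was at least 1.54-fold lower than that of day 3. miR-24-1-5p and miR-24-2-5p are the 5p arms of the 2 hairpins that give miR-24-3p. Whether the probe of one arm binds the other was not tested. Both were detected on all 3 day 30 arrays, on day 3 replicate 3, and on no array of days 0 and 7. On the day 30 arrays miR-24-2-5p, of the a cluster, had 66.6, 29.4 and 35.7 scanner units with errors of 5.13, 2.90 and 3.12. miR-24-1-5p, of the b cluster, had 28.6, 21.8 and 27.3 units there, with errors of 3.01, 2.67 and 2.86. At day 30 miR-24-2-5p was at least 3.52-fold higher than at day 7 and miR-24-1-5p at least 2.00-fold. These bounds carry no test, because the 2 arms entered the fit through the groups where they were detected. A bound sets the mean of the group with detected signal against the lowest detectable signal of the other group's arrays. Detection limits were lower on bright arrays, and the part of brightness in these differences was not tested.

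Likeness was measured as the root mean square difference of log2 levels over the 10 samples, each miRNA centred on its own mean, among the 126 miRNAs detected on all arrays. Nearest to miR-23a-3p were miR-532-5p (0.19), miR-26a-5p (0.20) and miR-30c-5p (0.26), and its paralog miR-23b-3p ranked 14 of 125 (0.56), while miR-23a-3p ranked 4 for miR-23b-3p. Nearest to miR-27a-3p were miR-29a-3p (0.27), miR-350-3p (0.35) and miR-30c-5p (0.39), with cluster mate miR-23a-3p at rank 14 and paralog miR-27b-3p at rank 23, while miR-27a-3p ranked 12 for miR-27b-3p. miR-23b-3p and miR-24-3p were each other's nearest (0.34), followed by miR-30d-5p (0.50) and miR-532-5p (0.55) for the first, and by miR-103-3p (0.38) and miR-532-5p (0.40) for the second. Nearest to miR-27b-3p were miR-22-3p (0.46), its cluster mate miR-23b-3p (0.59) and miR-29a-3p (0.59). Neither paralog was among the 3 nearest of the other in either family. These samples share slides and a wide range of brightness, and the measure is a description.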

How the data were processed

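Per the labels' protocols, macrophages came from independent biological replicates, and miRNA from 100 ng of total RNA was labelled with Cy3. Agilent Feature Extraction is named in the submitters' processing notes, and its version was not given in the sources used here. Per the file headers, the 11 deposited scanner files hold an intensity (total gene signal), its error and a detection flag. The authors' table of log2 values for 317 miRNAs has nearly the same set of values in every column (largest spread of sorted values 0.0348), as after quantile normalization, and was used as an alternative.

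Intensities were divided by the 75th percentile of those 126 miRNAs that every array detected, raised to a floor of 0.00271 (the median over arrays of the lowest detected scaled signal, which no member reached) and logged. All 4 groups entered 1 fit in limma 3.58.1 under R 4.3.3, with 6 residual degrees of freedom and 6 comparisons. Paralog differences were tested by exact permutation. Slides were told apart by the slide identifier of each array. Both tests were tried on simulated data.

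The members, lists and tests were chosen with earlier results of these data known. The rule named all members, the other hairpin products, and the 3 miRNAs nearest to each member.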

Additional observations from a re-analysis of the deposited data

How the results depend on the processing

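Array brightness, which differed by group, limits every change of level. With it as a covariate the calls of members were 0 at day 3 against day 0, 2 (both lower) at day 7 against day 0, and 0 in the comparisons of day 30 with day 0, day 7 with day 3 and day 30 with day 7. Signs then turned at day 3 against day 0 for miR-23b-3p (-0.78), miR-27a-3p (-1.25) and miR-27b-3p (-0.37). They turned at day 30 against day 0 for miR-23a-3p (-1.43), miR-23b-3p (-0.13), miR-27a-3p (-0.98) and miR-27b-3p (-0.16), at day 7 against day 3 for miR-23a-3p (0.72) and miR-27b-3p (1.13), and at day 30 against day 7 for miR-23a-3p (-0.29), miR-23b-3p (-0.68) and miR-27b-3p (-0.92). Over all miRNAs, calls in the 6 comparisons then numbered 68, 69, 0, 58, 131 and 13 in place of 204, 14, 208, 137, 114 and 176 (day 3, day 7 and day 30 against day 0, day 7 and day 30 against day 3, day 30 against day 7). This covariate was the log2 of the percentile used for scaling, which set days 0 and 7 apart from days 3 and 30 without overlap. Across that divide these fits cannot cleanly separate brightness from group. The cause of these changes in calls was not tested.

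Scaling moved counts further. Without scaling, calls were 5 for day 3 and 5 for day 30 against day 0, 4 (all lower) at day 7 against day 3, while day 30 against day 7 had 5. With the dmr control features they were 5, 5, 4 (all lower) and 5 in the same order, while day 7 against day 0 had 3 and day 30 against day 3 had 1. With the percentile over all miRNAs they were 4, 5, 0 and 3. Under these 3 settings miR-23a-3p turned at day 3 against day 0 (2.95, 2.44 and 2.00). Day 7 against day 0 turned for miR-23a-3p (0.44, 0.47 and 0.615) and miR-27a-3p (0.49, 0.51 and 0.66). At day 7 against day 3 they turned miR-23b-3p (-1.54, -1.003 and -0.41) and miR-24-3p (-2.28, -1.74 and -1.15).

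Calls at day 30 against day 0 were 2 with quantile normalization, the authors' table, 11 separate arrays, the slide or the replicate block, 3 with the highest floor or only miRNAs detected on all arrays, and 4 with median scaling or cyclic loess. At day 30 against day 7 they were 2 with these except the highest floor. At day 7 against day 3 they were 2 with the slide, the replicate block, cyclic loess or miRNAs detected on all arrays; the highest floor gave 1, miR-23b-3p as higher in place of miR-27a-3p. At day 30 against day 3 they were 3 with cyclic loess or the 2 groups alone and 1 with the highest floor or miRNAs detected on all arrays. At day 7 against day 0 they were 1 with median scaling, cyclic loess or no filter, and at day 3 against day 0 they were 0 with the 2 groups alone. Cyclic loess turned miR-23b-3p at day 3 against day 0 (-0.12) and miR-23a-3p at day 7 against day 3 (0.038), and the slide turned the first (-0.033). Whether the replicate number marks paired samples could not be told, because it largely followed the slide. Correlations of same-numbered pairs ran from -0.245 to 0.503, with 6 of 15 over 0.1. The replicate block, which counted all 11 arrays separately, kept every call.

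Without single replicates, calls ranged over 0 to 2 at day 3 and day 7 against day 0, 0 to 3 at day 30 against day 0, 0 to 2 at day 7 against day 3, 0 to 1 at day 30 against day 3 and, for day 30 against day 7, 1 to 2. The higher counts came without a day 0 array, or without day 7 replicate 2 in the comparisons of days 7 and 30 with day 0. Changes that turned ranged over -0.29 to 0.30 (miR-23b-3p) and -0.10 to 1.18 (miR-27a-3p) at day 3 against day 0, and -0.18 to 0.58 (miR-23a-3p) at day 30 against day 0. They ranged over -0.26 to 0.038 (miR-23a-3p), -0.33 to 0.17 (miR-27b-3p) and -0.016 to 0.12 (miR-24-3p) at day 7 against day 3, and -0.063 to 0.12 (miR-23b-3p) at day 30 against day 7.

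All 4 paralog tests stayed on their side of the threshold under every alternative run. Across 4 groups F ranged over 43.8 to 86.0 for miR-23 and 12.1 to 27.4 for miR-27 without single replicates. It was 23.96 and 28.3 in the authors' table (exact permutation p = 0.00206 and 0.00175) and 43.6 and 16.4 with the replicate block (0.00174 and 0.0104).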
